A study of Mus musculus with 6 samples.

Results

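Histone and DNA modifying enzymes were examined in mouse cumulus cells, the somatic cells that surround the oocyte, before and after the hormone that sets off ovulation. The group was taken by gene symbol from the annotation of the array and holds the histone lysine demethylases (Kdm), the KMT2 and EZH methyltransferases, the SETD family, the histone deacetylases (Hdac), the sirtuins (Sirt), the DNA methyltransferases (Dnmt) and the TET dioxygenases. It comprised 57 of the 18194 genes measured, each read from its brightest probe set. The rule uses gene symbols and no measured change, although the members were chosen with earlier results of these data known. All mice were wild-type females of 21 days, primed with 5 IU eCG (equine chorionic gonadotropin), a hormone that makes follicles grow, for 46 h. The hCG-0h mice were then sampled, at 23 days of age, and the hCG-6h mice 6 h after a further injection of 5 IU hCG (human chorionic gonadotropin). Each group held 3 samples, each pooling cells stripped from 50 complexes in medium with 5 µM milrinone, which keeps oocytes from maturing, and each put on 1 array. No group went without hCG for the added hours, so hormone and time cannot be told apart. Descriptions of hCG-6h samples 2 and 3 read 7 h and 8 h, against 6 h in their titles.

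Methyl and acetyl groups on histone tails, and methyl groups on cytosine, mark chromatin as open or closed to transcription. Writers place these marks, erasers remove them, and most marks have several of each: H3K4 methylation lies at active promoters and enhancers, H3K27 trimethylation at genes silenced by Polycomb, and H3K9 methylation in compact chromatin. Deacetylases and the NAD-dependent sirtuins remove acetyl groups, from histones and from many other proteins. DNA methyltransferases methylate cytosine and TET enzymes oxidise that methyl group on the way to its loss. The arrays measured the transcripts of these enzymes, not the marks or the proteins.

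Levels are deposited log2 values, whose array medians lay between 6.43 and 6.46. A level under 6.08, the limit of the dimmest genes (1 in 3), is called dim below, since background correction compresses changes there. Inha, a granulosa and cumulus marker, stood between 13.36 and 13.49 in all 6 samples, and of 11 measured markers of these cells 8 fell at hCG-6h and none rose. Of the markers of other cells, 10 of 19 for oocytes, 2 of 5 for theca, 6 of 11 for leukocytes, 6 of 8 for endothelium and 1 of 3 for red cells were dim in both groups. Of 19 oocyte markers 1 rose, of 5 theca markers 1 fell, of 11 leukocyte markers 1 fell, none of 8 endothelial markers passed (limma, adjusted p under 0.05), and of 3 red cell markers 1 fell. The labels do not say whether the samples came from separate mice, so p-values measure the spread between these samples. In such bulk RNA, fewer cells of a type and less RNA per cell cannot be told apart.

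Of the 57 enzymes, 9 rose and 10 fell at hCG-6h, and 38 did not pass (limma, Benjamini-Hochberg adjusted p under 0.05 over all genes). Among all 18194 genes 10.8% rose and 10.5% fell, together 21.3%, against 33.3% of the enzymes. Only 3 enzymes (Kdm5d, Hdac9 and Hdac11) were dim in both groups, and among the 12539 genes that were not, 29.4% passed, against 35.2% of the other 54 enzymes. These shares were not tested against each other, and the counts of single families below are small and are given as descriptions. Of those that rose 3 passed 2-fold, and of those that fell 2, while 9.97% of all genes passed both the test and 2-fold. The median size of the log2 change, sign aside, was 0.40 in the enzymes and 0.23 over all genes. The median log2 change of the 57 was -0.06, against 0.01 over all genes. The hCG-0h and hCG-6h values did not overlap in 27 of the 57 (47.4%, against 37.9% of all genes), which include all 19 enzymes that passed. The all-gene figures for 2-fold, median size and overlap include 5655 genes dim in both groups, where changes are compressed. They were not computed without those genes, so they are no like background for the enzymes. With each sample left out in turn, 9 of the 19 passed every time. Leaving out hCG-0h sample 1, hCG-0h sample 3 or hCG-6h sample 2 brought the number that fell to 5. Leaving out hCG-6h sample 1 brought it to 6, and leaving out hCG-6h sample 3 brought the number that rose to 5.

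**Figure D1:**
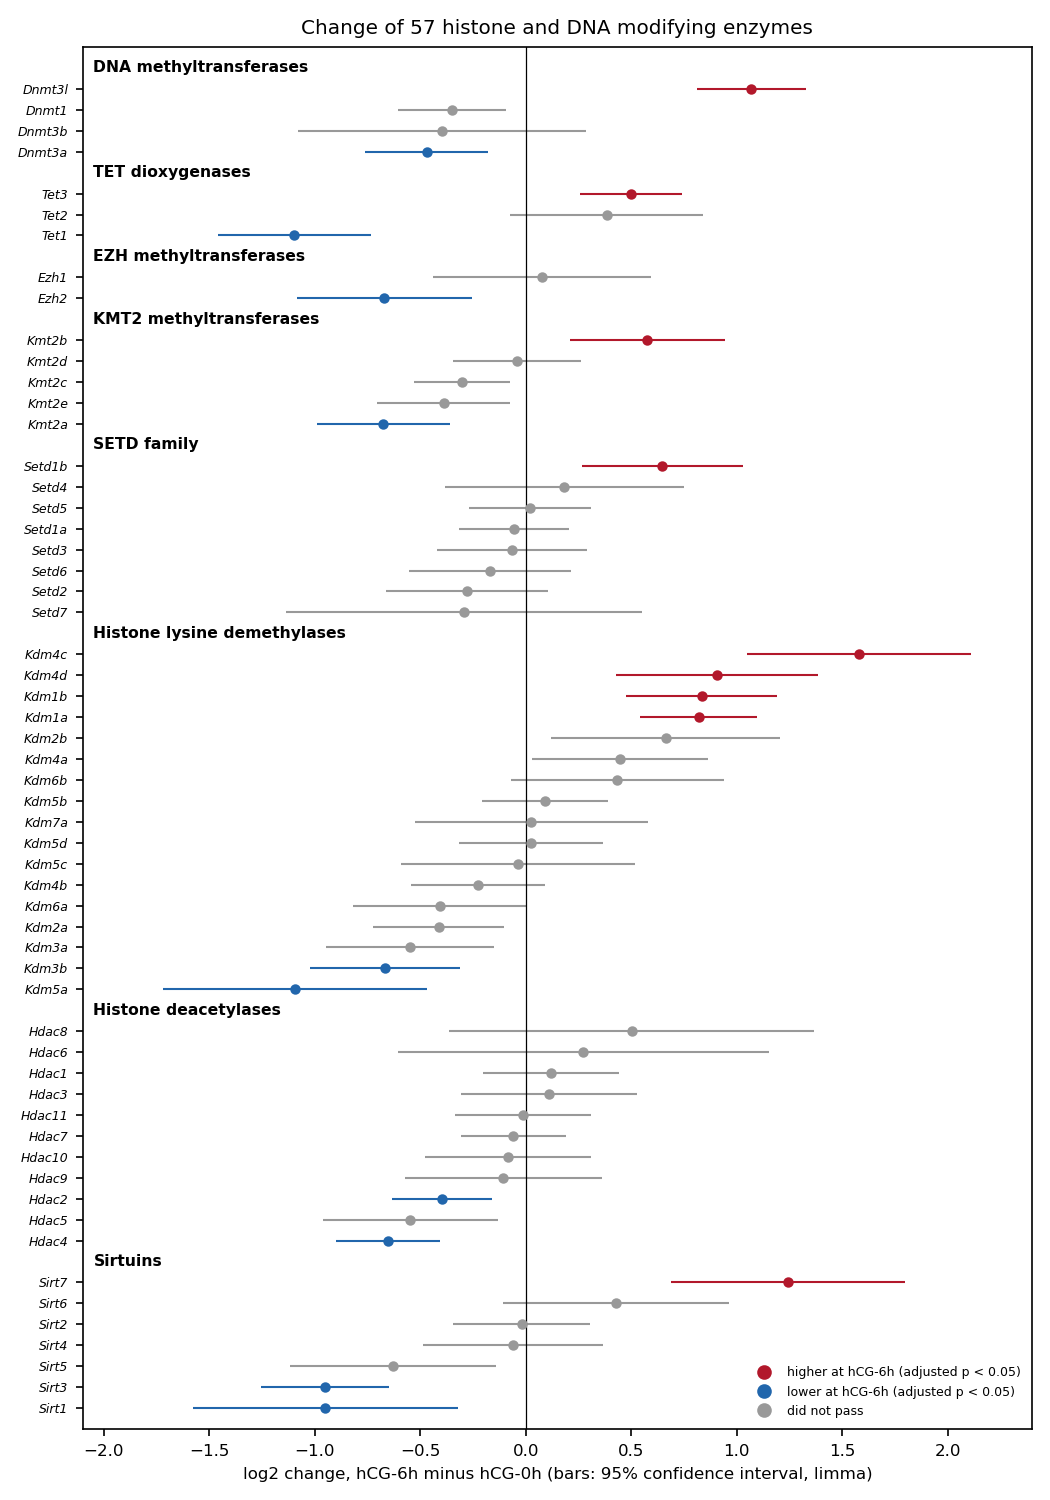
Log2 change (hCG-6h minus hCG-0h, horizontal axis) of each of the 57 enzymes with its 95% confidence interval from limma, sorted within families, 3 samples a group. Red marks the 9 that rose, blue the 10 that fell and grey the 38 that did not pass; 5 of the 8 families hold both red and blue, and the widest excursions are Kdm4c (1.58) and Tet1 (-1.10).

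Promoters are shown for the enzymes that changed because the receptor of hCG signals through cyclic AMP, whose effector CREB binds the cyclic AMP response element (CRE). Whether hCG acted on the cumulus cells directly was not tested. RefSeq promoters were found for 46 of the 57 enzymes, and the 250 bases before each start were searched on both strands for the full CRE (TGACGTCA), for its core (TGACG, which the full CRE also contains) and for an E2F site (TTTNGCGC, no overlap with these). No enzyme held the full CRE, which is found in 1.77% of all genes with a promoter. The core was in 11 of the 46, or 23.9%, against 19.8% of all genes. It was in 3 of 7 enzymes that rose, 3 of 8 that fell and 5 of 31 that did not pass. The E2F letters were in Dnmt1 alone among the 46, against 1.31% of all genes. Member promoters had a median GC content of 62%, against 52.4% over all promoters, and the part of base composition in these shares was not tested. A match describes the letters and is no binding site. A gene was counted when any of its promoters held the letters, and Kdm4c, Dnmt3l and Sirt3 also have promoters without the core. The 6 promoters with a core among the enzymes that changed follow, 5′ to 3′ in the direction of the gene, with the core in capitals (CGTCA where it lies on the other strand).
Kdm4c, GRCm38.p6, chr4:74251629-74251878, plus strand: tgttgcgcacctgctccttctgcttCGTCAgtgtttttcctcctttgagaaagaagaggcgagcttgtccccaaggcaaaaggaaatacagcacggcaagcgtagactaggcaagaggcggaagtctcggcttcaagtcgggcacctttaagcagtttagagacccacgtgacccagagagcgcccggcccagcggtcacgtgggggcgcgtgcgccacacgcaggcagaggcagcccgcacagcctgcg
Kdm4d, GRCm38.p6, chr9:14500483-14500732, minus strand: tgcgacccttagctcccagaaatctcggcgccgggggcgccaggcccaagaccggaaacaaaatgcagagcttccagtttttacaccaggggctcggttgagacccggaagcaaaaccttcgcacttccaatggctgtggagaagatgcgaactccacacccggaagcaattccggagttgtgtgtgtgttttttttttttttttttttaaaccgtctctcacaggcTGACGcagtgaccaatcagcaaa
Dnmt3l, GRCm38.p6, chr10:78042037-78042286, plus strand: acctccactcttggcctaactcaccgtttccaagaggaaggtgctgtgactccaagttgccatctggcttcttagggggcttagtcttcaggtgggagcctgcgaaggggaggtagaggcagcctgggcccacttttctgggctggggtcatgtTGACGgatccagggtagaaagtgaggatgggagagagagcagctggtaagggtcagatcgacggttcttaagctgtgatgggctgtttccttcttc
Sirt1, GRCm38.p6, chr10:63339036-63339285, minus strand: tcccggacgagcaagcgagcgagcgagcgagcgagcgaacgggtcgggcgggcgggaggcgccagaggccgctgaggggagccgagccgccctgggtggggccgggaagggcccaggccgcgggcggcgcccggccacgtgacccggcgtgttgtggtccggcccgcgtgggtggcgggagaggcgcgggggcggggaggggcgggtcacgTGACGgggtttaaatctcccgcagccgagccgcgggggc
Sirt3, GRCm38.p6, chr7:140882310-140882559, minus strand: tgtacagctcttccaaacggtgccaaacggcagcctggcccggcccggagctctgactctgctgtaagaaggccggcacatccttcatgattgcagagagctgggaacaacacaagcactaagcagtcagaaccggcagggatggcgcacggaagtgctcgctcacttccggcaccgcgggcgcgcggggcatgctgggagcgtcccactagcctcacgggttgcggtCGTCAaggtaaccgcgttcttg
Hdac4, GRCm38.p6, chr1:92180342-92180591, minus strand: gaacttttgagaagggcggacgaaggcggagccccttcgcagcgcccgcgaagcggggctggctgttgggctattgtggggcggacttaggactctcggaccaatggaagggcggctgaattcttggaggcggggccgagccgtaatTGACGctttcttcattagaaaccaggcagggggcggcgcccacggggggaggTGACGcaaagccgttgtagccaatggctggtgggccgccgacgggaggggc
The first 3 are those of enzymes that rose, Kdm4c, Kdm4d and Dnmt3l, and the others those of enzymes that fell.

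DNA methyltransferases and TET enzymes each moved both ways. Dnmt3l, the catalytically inactive partner of the de novo methyltransferases in germ cells, read 5.50, 5.48 and 5.59 (samples 1, 2 and 3) before hCG and 6.71, 6.46 and 6.61 (samples 1, 2 and 3) after it. The groups lay well apart, and the gene, dim at hCG-0h, rose 2.10-fold (log2 change 1.07 ± 0.11, SE; limma adjusted p = 0.000795), the lowest p among the 57. Dnmt3a, a de novo methyltransferase, fell from 11.25 ± 0.12 to 10.78 ± 0.14 (SD, n = 3 each), 1.39-fold, at a limma adjusted p of 0.036. That call was lost without any 1 sample other than hCG-0h sample 3 (adjusted p = 0.0533 to 0.106). Dnmt1, which copies methylation onto new DNA strands, missed the threshold at 10.84 ± 0.12 and 10.49 ± 0.06 (SD, n = 3 each; limma adjusted p = 0.0624), although its groups did not overlap. Dnmt3b varied within groups, from 7.16 to 7.84 at hCG-0h and from 6.55 to 7.56 at hCG-6h, and did not pass (limma adjusted p = 0.402).

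Tet1 read 7.21, 7.60 and 7.72 at hCG-0h and 6.34, 6.50 and 6.40 at hCG-6h. Every hCG-6h value lay below every hCG-0h value, and Tet1 fell 2.14-fold (log2 change -1.10 ± 0.15, SE; limma adjusted p = 0.00313). Tet3 moved the other way, from 9.29 ± 0.07 to 9.79 ± 0.09 (SD, n = 3 each), 1.41-fold higher at a limma adjusted p of 0.0148. Its call was lost with sample 2 of hCG-0h left out, or with sample 1 or 3 of hCG-6h (adjusted p = 0.0511 to 0.0539). Tet2 stood at 9.19 to 9.47 (hCG-0h) and 9.47 to 10.11 (hCG-6h), with a log2 change of 0.38, and did not pass (limma adjusted p = 0.224).

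Dnmt3l and Tet3 are known for roles in the germ line, and the extraction protocol speaks of whole complexes where the growth protocol speaks of cumulus cells, so oocyte markers were read beside them. The markers' mean level was 5.54 to 5.72 in the hCG-0h samples and 5.78 to 5.87 in the hCG-6h samples, and 10 of the 19 were dim in both groups. Ooep, a protein of the oocyte cortex, was the marker that rose, from 6.19, 6.84 and 6.57 to 8.54, 8.32 and 8.54 (log2 change 1.93). Dppa3, a maternal factor that protects DNA methylation, read 6.43, 7.44 and 6.15 at hCG-0h and 7.83, 7.52 and 7.54 at hCG-6h, with no overlap, but missed the threshold (log2 change 0.96, limma adjusted p = 0.0851). Tle6, a protein of the same oocyte complex as Ooep, was not dim in any sample and read 7.94 to 8.48 and 7.89 to 8.36, with a log2 change of -0.02. Zona pellucida and oocyte growth factor genes did not pass. In the hCG-0h and hCG-6h samples Zp2, a zona pellucida protein, read 3.62 to 3.77 and 3.56 to 3.66, Zp3 4.63 to 4.73 and 4.71 to 4.95, Bmp15 4.86 to 5.03 and 4.94 to 4.96, and Gdf9 5.43 to 5.87 and 5.80 to 6.31. Zp2, Zp3 and Bmp15 were thus dim in all 6 samples. The part of oocyte RNA in the rise of Dnmt3l was not tested.

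Of the Polycomb H3K27 methyltransferases, Ezh2 fell and Ezh1 did not pass. Ezh2, the form typical of dividing cells, read 9.58, 9.51 and 9.68 at hCG-0h and 9.29, 8.68 and 8.79 at hCG-6h. The groups did not overlap, with hCG-6h sample 1 nearest to the hCG-0h values, and the fall was 1.59-fold (log2 change -0.67 ± 0.17, SE; limma adjusted p = 0.0359). It passed without hCG-6h sample 1 but not without any other sample (adjusted p = 0.0752 to 0.109). Ezh1, the form of resting cells, stood at 8.53 ± 0.37 and 8.60 ± 0.25 (SD, n = 3 each), with a 95% interval of its log2 change from -0.44 to 0.59. The H3K27 demethylases did not pass on their brightest probe sets. Kdm6a read 9.97 to 10.46 at hCG-0h and 9.66 to 10.02 at hCG-6h (limma adjusted p = 0.158).

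Kdm6b, which is inducible in many cells, read 10.81, 11.27 and 10.42 before hCG and 11.21, 11.36 and 11.23 after it. Its groups overlapped through hCG-0h sample 2, and its log2 change was 0.43 ± 0.21 (SE; limma adjusted p = 0.214). Without hCG-0h sample 2 the change was 0.65 and passed (limma adjusted p = 0.0437), and without hCG-0h sample 3 it was 0.23. In hCG-0h sample 3 the mean level of 12 immediate early genes, which respond within minutes to stimuli, was 9.47, against 10.55 and 10.57 in samples 1 and 2 and 11.52 to 11.68 at hCG-6h. Whether this bears on Kdm6b was not tested. The other probe sets of Kdm6b gave log2 changes of 1.52 (limma adjusted p = 0.0453) and 0.97 (adjusted p = 0.0664), and the mean of its probe sets passed (log2 change 0.97, limma adjusted p = 0.014).

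Ezh2 fell beside some genes of DNA replication. Of 20 replication genes 9 fell and none rose, a share of 45%. Among all genes 10.5% fell, and among those not dim in both groups 29.4% passed in either direction. The list was chosen with earlier results of these data known, so its share is a description. The largest falls were those of the DNA ligase Lig1 (log2 change -1.66), the polymerase subunit Pola1 (-1.53) and the helicase subunit Mcm6 (-1.53). The other 11 did not pass, among them Pcna and Rrm2 (log2 change 0.0033 each). The mean level of the 20 was 9.98 to 10.15 in the hCG-0h samples and 9.34 to 9.51 in the hCG-6h samples. Uhrf1, which brings DNMT1 to newly copied DNA, read 10.89 in all 3 hCG-0h samples and 9.78, 9.96 and 9.99 at hCG-6h, a log2 change of -0.98 ± 0.10 (SE; limma adjusted p = 0.000908). The part of fewer replicating cells in the values of Ezh2, Dnmt1 and Uhrf1 was not tested.

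The H3K4 methyltransferases were divided. Kmt2a, also known as MLL1, read 9.92, 9.78 and 9.93 at hCG-0h and 8.97, 9.36 and 9.27 at hCG-6h. The groups did not overlap and Kmt2a fell 1.60-fold (log2 change -0.68 ± 0.13, SE; limma adjusted p = 0.0127). Its paralog Kmt2b rose 1.49-fold, from 8.63 ± 0.28 to 9.21 ± 0.06 (SD, n = 3 each; limma adjusted p = 0.0405), and Setd1b rose 1.57-fold, from 9.38 ± 0.21 to 10.03 ± 0.21 (SD, n = 3 each; limma adjusted p = 0.0302). The call of Kmt2b was lost without any 1 sample other than hCG-0h sample 1 (adjusted p = 0.0837 to 0.119), after quantile normalisation was applied again (adjusted p = 0.0568) and after centring on array medians (adjusted p = 0.0511). That of Setd1b was lost with sample 2 or 3 of either group left out (adjusted p = 0.0651 to 0.0878). The enhancer methyltransferases Kmt2c and Kmt2d had log2 changes of -0.30 (limma adjusted p = 0.0676) and -0.04, and Kmt2e, a relative with little or no known activity, -0.39 (limma adjusted p = 0.0856).

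Setd1b was the only one of the 8 SETD genes that passed on its brightest probe set (12.5%, against 21.3% of all genes and 29.4% of those not dim in both groups). Of its 2 probe sets 1 passed. Setd5 and Setd6 each had 1 of 3 probe sets, a dimmer one, that passed as lower. Setd1a, the paralog of Setd1b, had a log2 change of -0.06 with a 95% interval from -0.32 to 0.20. Setd2, which trimethylates H3K36, had -0.28 (95% interval -0.66 to 0.10). Setd3, which methylates actin, had -0.07, Setd4 0.18, Setd5 0.02, Setd6, which methylates the NF-kappaB subunit RELA, -0.17, and Setd7, an H3K4 monomethyltransferase, -0.29. Setd7 read 7.62 to 8.96 in the hCG-6h samples, and its log2 change ran from -0.63 to 0.04 with 1 sample left out.

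Among the 17 histone lysine demethylases 4 rose and 2 fell. Together 35.3% passed, against 29.4% of all genes not dim in both groups, though the 17 include Kdm5d, which was dim in both. Kdm4c, which removes methyl groups from H3K9 and H3K36, showed the largest change of all 57 enzymes, from 6.12, 6.68 and 6.97 at hCG-0h to 8.35, 8.12 and 8.04 at hCG-6h. The groups lay more than 1 log2 unit apart, and the rise was 2.99-fold (log2 change 1.58 ± 0.22, SE; limma adjusted p = 0.00336). Its relative Kdm4d read 5.23, 5.29 and 5.11 at hCG-0h, where it was dim, and 6.48, 5.70 and 6.17 at hCG-6h. The hCG-6h values were spread but all higher, and the rise was 1.87-fold (limma adjusted p = 0.0201), a call lost with any hCG-0h sample left out and with sample 3 of hCG-6h left out (adjusted p = 0.0502 to 0.0677). The other H3K9 and H3K36 demethylases of the family, Kdm4a and Kdm4b, had log2 changes of 0.45 and -0.23 and did not pass (limma adjusted p = 0.13 and 0.302).

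The flavin-dependent H3K4 demethylases both rose. Kdm1a (LSD1), a subunit of corepressor complexes, read 10.92, 11.18 and 11.15 at hCG-0h and 12.01, 11.83 and 11.87 at hCG-6h. It rose 1.77-fold with no overlap (log2 change 0.82 ± 0.12, SE; limma adjusted p = 0.00347), and its second probe set rose alike (0.81). Kdm1b (LSD2), known for its part in setting imprints in oocytes, read 5.80, 5.72 and 6.04 at hCG-0h, where it was dim, and 6.44, 6.79 and 6.83 at hCG-6h, a 1.78-fold rise (limma adjusted p = 0.00904). The oocyte markers given above apply beside it too, and their part in its rise was not tested.

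Kdm5a, an H3K4 demethylase of another family, fell. It read 9.67, 9.47 and 9.96 at hCG-0h and 8.05, 8.76 and 9.01 at hCG-6h, with hCG-6h sample 1 the lowest. The fall was 2.13-fold (log2 change -1.09 ± 0.26, SE; limma adjusted p = 0.0272) and missed the threshold with sample 1 or 3 of hCG-0h, or sample 2 of hCG-6h, left out (adjusted p = 0.0551 to 0.0866). All 6 of its probe sets had log2 changes below 0, and 3 of them passed. Its paralogs Kdm5b and Kdm5c had log2 changes of 0.09 and -0.04 on their brightest probe sets. Of the 4 probe sets of Kdm5b 1 passed, as lower (log2 change -0.61, limma adjusted p = 0.0163), and of the 9 of Kdm5c none. Kdm5d lies on the Y chromosome, which these females lack, and its probe set read 3.86 to 4.33 and 4.03 to 4.20, with a log2 change of 0.02 (95% interval -0.32 to 0.36). The other Y-linked demethylase gene, Uty, read 4.38 to 4.52 and 4.48 to 4.57.

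Kdm3b, which removes H3K9 methylation, fell 1.59-fold, from 8.89 ± 0.13 to 8.22 ± 0.24 (SD, n = 3 each; limma adjusted p = 0.0212). Its call was lost when hCG-0h lacked sample 1 or 3, and when hCG-6h lacked sample 1 or 2 (adjusted p = 0.0582 to 0.0704), and the mean of its probe sets did not pass (log2 change -0.38, limma adjusted p = 0.111). Kdm3a had a log2 change of -0.55 and missed the threshold (limma adjusted p = 0.0617). The H3K36 demethylases Kdm2a and Kdm2b had log2 changes of -0.41 and 0.66 (limma adjusted p = 0.0684 and 0.0888), with no overlap of the groups in either. Kdm7a had 0.03 (limma adjusted p = 0.956).

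**Figure D2:**
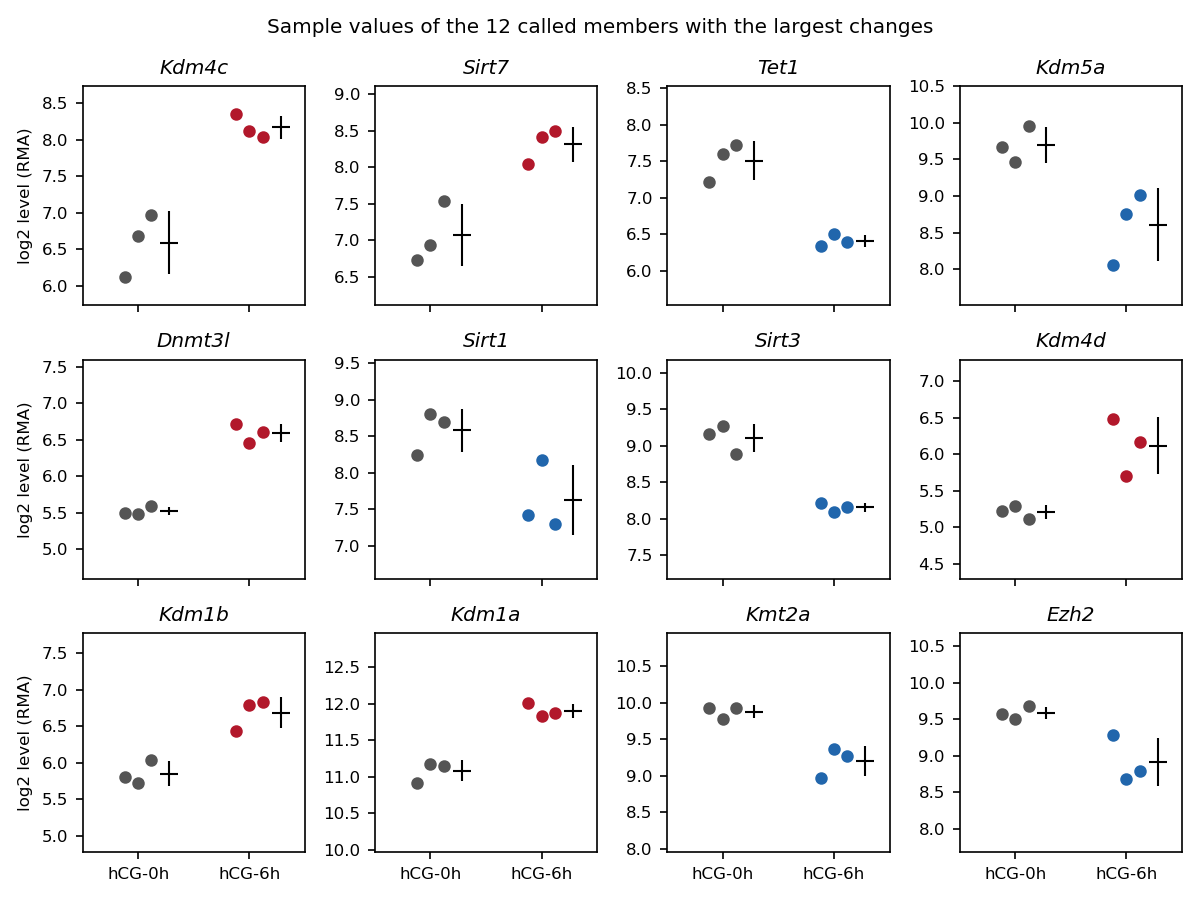
Deposited log2 level (vertical axis, 3 units in every panel) of the 12 enzymes that passed with the largest changes, in the 3 hCG-0h samples (grey) and the 3 hCG-6h samples (red where higher, blue where lower); points run from sample 1 to 3 and black marks give mean and SD. The groups do not overlap in any panel, and Sirt1, Kdm5a and Kdm4d show the widest spread at hCG-6h (SD 0.48, 0.50 and 0.39).

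Of 11 histone deacetylases 2 fell and none rose. Their share was 18.2%, against 21.3% of all genes and 29.4% of those not dim in both groups. The 11 include Hdac9 and Hdac11, which were dim in both groups, so the last share is no like background. Hdac4, a class IIa enzyme that shuttles between nucleus and cytoplasm, fell 1.57-fold, from 10.09 ± 0.05 to 9.44 ± 0.11 (SD, n = 3 each; limma adjusted p = 0.00521). Hdac2, a class I enzyme of the Sin3, NuRD and CoREST complexes, fell 1.32-fold, from 12.15 ± 0.03 to 11.76 ± 0.10 (SD, n = 3 each; limma adjusted p = 0.0322). The call of Hdac2 was lost without any 1 sample other than hCG-6h sample 3 (adjusted p = 0.0607 to 0.0992), and the mean of its 3 probe sets did not pass (log2 change -0.15, limma adjusted p = 0.394). Hdac1, its close paralog, read 10.23 to 10.39 and 10.28 to 10.67, with a log2 change of 0.12 (95% interval -0.20 to 0.44), and Hdac3 and Hdac8 had 0.11 and 0.50.

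The log2 changes of the other class IIa genes were -0.55 for Hdac5, -0.06 for Hdac7 and -0.11 for Hdac9. Hdac5 missed the threshold (limma adjusted p = 0.0706) and passed without hCG-0h sample 1 (log2 change -0.72, adjusted p = 0.0207). Hdac6, a cytoplasmic deacetylase of tubulin, spread from 8.09 to 9.64 at hCG-6h and had a log2 change of 0.27. Hdac10 and Hdac11 had -0.08 and -0.01.

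Of 7 sirtuins 1 rose and 2 fell, 42.9% together, against 29.4% of all genes not dim in both groups. Sirt7, a sirtuin of the nucleolus, read 6.73, 6.94 and 7.54 at hCG-0h and 8.04, 8.41 and 8.49 at hCG-6h. The groups did not overlap and the rise was 2.37-fold (log2 change 1.24 ± 0.23, SE; limma adjusted p = 0.0106). Sirt3, the main deacetylase of mitochondria, read 9.16, 9.27 and 8.89 at hCG-0h and 8.22, 8.09 and 8.16 at hCG-6h, a 1.93-fold fall with tight values in both groups (log2 change -0.95 ± 0.13, SE; limma adjusted p = 0.0027).

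Sirt1, a nuclear deacetylase of histones and transcription factors, had the same mean change as Sirt3 with a wider spread. It read 8.25, 8.80 and 8.70 at hCG-0h and 7.42, 8.18 and 7.30 at hCG-6h, so that hCG-6h sample 2 came near hCG-0h sample 1 (log2 change -0.95 ± 0.26, SE; limma adjusted p = 0.0457). The call was lost without any 1 sample other than hCG-6h sample 2 (adjusted p = 0.0509 to 0.13) and when every probe set was tested on its own (adjusted p = 0.0532). Sirt5, a mitochondrial desuccinylase, and Sirt6, a nuclear sirtuin, had log2 changes of -0.63 and 0.43 (limma adjusted p = 0.0761 and 0.245). Without hCG-0h sample 2 Sirt5 passed (log2 change -0.80, adjusted p = 0.0451), and without hCG-0h sample 3 Sirt6 passed (log2 change 0.69, adjusted p = 0.0141). Sirt2 and Sirt4 had -0.02 and -0.06.

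Probe sets of a gene can read different ends or transcript forms, and 36 of the 57 enzymes had more than 1. Tested on their own, no enzyme had probe sets that passed in opposite directions. All 4 probe sets of Tet1 and both of Kdm1a passed in the direction of the gene, as did 3 of 5 for Dnmt3a, 1 of 3 for Hdac4, 1 of 3 for Hdac2 and 1 of 2 for Kmt2a, Kdm3b and Setd1b. Of the 38 enzymes that did not pass on their brightest probe set, 8 had another that did, lower in Kmt2e, Setd5, Setd6, Kdm5b, Kdm7a and Hdac11 and higher in Kdm2b and Kdm6b. The widest gap was in Setd5, whose brightest probe set had a log2 change of 0.02 and of whose dimmer ones 1 had 0.21 and 1 fell by 1.14 on the log2 scale (limma adjusted p = 0.00172).

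**Figure D3:**
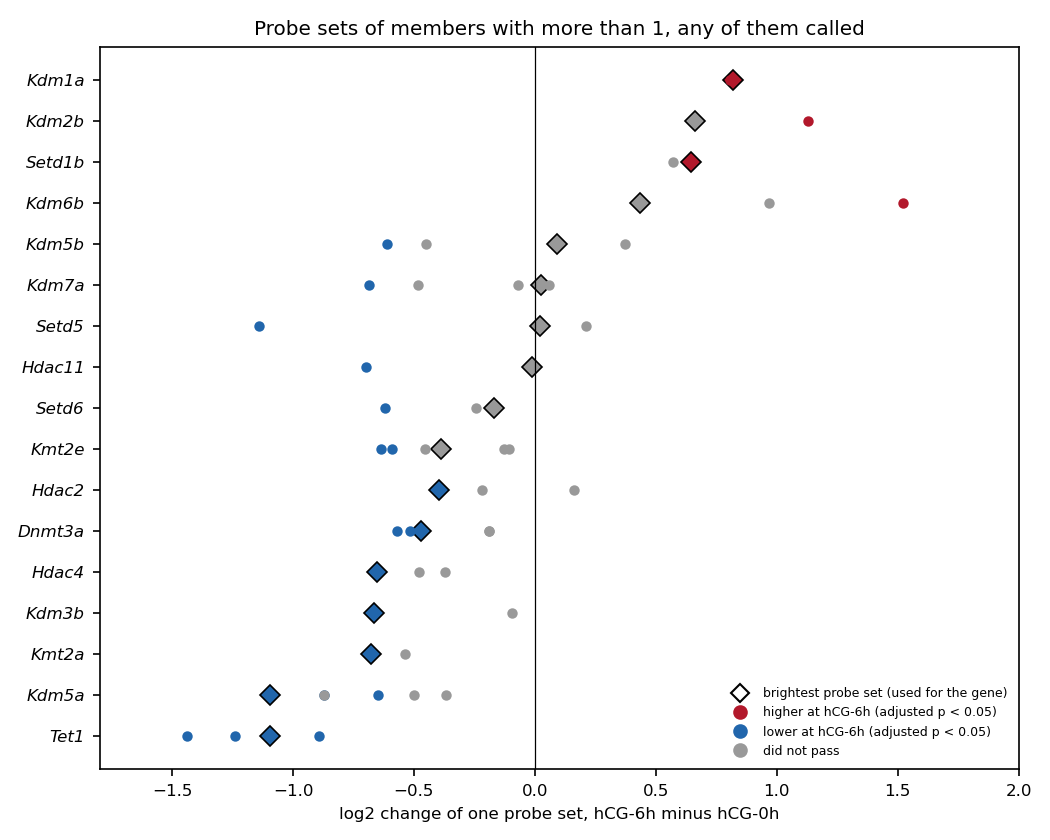
Log2 change (hCG-6h minus hCG-0h, horizontal axis) of every probe set of the enzymes that have more than 1 and at least 1 that passed; diamonds mark the brightest probe set, red and blue mark probe sets that passed. The 2 symbols of Kdm1a coincide, no row holds both red and blue, and the low probe set of Setd5 (-1.14) lies far from its diamond (0.02).

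Partner genes of these enzymes moved both ways as well. Of 124 measured partners in 8 lists, 20 rose and 14 fell (limma, adjusted p under 0.05), or 27.4% together, against 21.3% of all genes and 29.4% of those not dim in both groups, with a median log2 change of 0.08. Only 6 of the 124 were dim in both groups, so the second share is the nearer background and the partners' share lay slightly below it. Single lists ranged from 16.7% for subunits of H3K4 methyltransferase complexes to 36.4% for partners and readers of DNA methylation. With 1 sample left out the number that rose was lowest, at 12, for hCG-0h sample 2 and for hCG-6h sample 3, and was 13 for hCG-0h sample 3. The number that fell was 7 for hCG-0h sample 2 and for samples 1 and 3 of hCG-6h, and 8 for hCG-0h sample 3 and hCG-6h sample 2. Of these 34 genes 16 passed in all 6 such fits. Kat6b, Crebbp, Prmt1, Jmjd8 and Men1 passed in none of them (limma adjusted p from 0.0503 to 0.131). Of the other genes named below, Prmt2, Phf1, Rbbp7 and Cxxc4 passed in 1, Prdm2 and Mta2 in 2, Smyd5 in 3, Rnf2 in 4 and Zbtb33 in 5. When every probe set was tested on its own, Kat6b, Crebbp, Prmt1 and Phf1 had none that passed.

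Polycomb partners had 6 that rose and 2 that fell among 25. Phf1, which helps PRC2 bind chromatin, and Pcgf1, a PRC1 subunit, had the largest rises (log2 changes 1.30 and 1.18), and the PRC1 ubiquitin ligase gene Rnf2 and the histone-binding Rbbp7 fell (-0.55 and -0.43). Eed and Suz12, PRC2 core partners of EZH2, did not pass on their brightest probe sets (log2 changes 0.23 and -0.13). Of the 6 probe sets of Suz12, 2 passed as lower when tested on their own. Partners and readers of DNA methylation gave 2 rises, of Cxxc5 (0.74) and the methyl-CpG reader Zbtb33 (0.55), and 2 falls, of Uhrf1 and Cxxc4 (-0.75), among 11. Subunits of deacetylase complexes gave 2 rises and 3 falls among 20. Tbl1xr1, a subunit of the NCoR complex, rose most (1.34), and the NuRD subunits Mta3 and Gatad2b fell (-0.92 and -0.72) while their relative Mta2 rose (0.67).

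Of 12 subunits of H3K4 methyltransferase complexes 2 rose, Pagr1a (log2 change 1.26) and Men1, which encodes menin (0.43), and none fell. Their share was 16.7%, against 21.3% of all genes and 29.4% of those not dim in both groups. Among 14 histone acetyltransferases Kat2b (PCAF) rose (0.94), and Kat6b (-1.05) and the CREB-binding protein gene Crebbp (-0.36) fell. Other lysine methyltransferases gave 4 rises and 3 falls among 22, with Smyd5 (1.04) and the H3K9 methyltransferase Ehmt1 (0.79) up and Smyd3 (-1.19) and Prdm2 (-0.80) down. Of 9 arginine methyltransferases Prmt2 (1.25) and Prmt1 (0.36) rose. Among 11 other JmjC and related proteins Hr rose (1.32), and Jmjd1c (-1.23) and Jmjd8 (-0.43) fell.

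**Figure D4:**
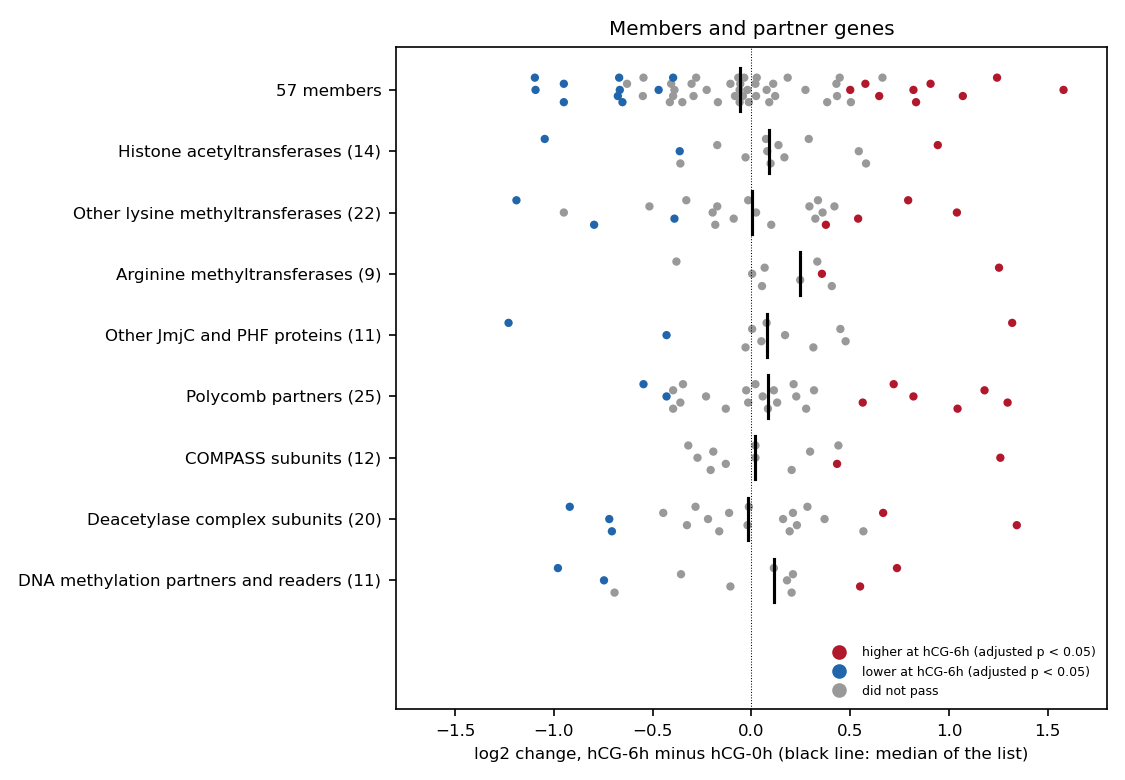
Log2 change (hCG-6h minus hCG-0h, horizontal axis) of the 57 enzymes and of each list of partner genes (number measured in brackets); each point is a gene, red rose, blue fell, grey did not pass, and the black line is the median. Medians lie between -0.06 and 0.25, with single genes spread from -1.23 to 1.58.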

How the data were processed

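Gene expression was measured on single-colour arrays in 6 cumulus cell samples, 3 a group, from amplified and biotin-labelled cDNA per the labels' protocols. Values were deposited in log2 units, made by the authors with GCOS, Affymetrix Expression Console 1.1 and RMA per the submitters' processing notes. RMA by its design corrects background, normalises by quantiles and summarises probes. The sources used here do not give a genome build. Of 45101 probe sets, 34958 had 1 gene symbol, 932 several and 9211 none listed. Probe sets with 1 symbol were used, and the brightest over all 6 samples stood for a gene. All 57 members matched the reference gene table.

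The comparison used limma 3.58.1 in R 4.3.3 (lmFit, eBayes, group as the only term, all 18194 genes, Benjamini-Hochberg adjustment, threshold 0.05), tested on simulated data. Named were all members, with sample values for the 12 that passed with the largest changes, and up to 2 partners a list and direction. The members and lists were chosen with earlier results of these data known. Several listed partners were not analysed here. Promoters are from RefSeq (GRCm38.p6). The number of arrays limits the precision. Same-numbered samples of the groups did not deviate together. Other settings are given in the closing section.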

Additional observations from a re-analysis of the deposited data

How the results depend on the processing

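Under the other settings, the 19 enzymes that passed kept the direction of their change in all 283 fits made and lost the threshold in 67. Most of these fits could not have reversed a direction. The groups of all 19 did not overlap, or the fit left the mean change as it was, so the kept direction is no added evidence. With only hCG-6h sample 1, whose description alone gives 6 h, 2 enzymes rose and 2 fell, and 6 partners rose and 3 fell. That fit assumes that the lone sample varies like the 3 hCG-0h samples, and its lower counts come with fewer samples and say nothing of the hours. With the sample number as a replicate block, 8 enzymes rose and 9 fell, and 15 partners rose and 7 fell in place of 14. The block ended the calls of Ezh2, Kmt2b, Setd1b and Hdac2 and gave those of Kdm2b and Sirt5. Same-numbered samples correlated at 0.0115, -0.0156 and 0.0286 in their deviations from the group means. These values show no common deviation, and cannot tell whether same-numbered samples shared a batch. With 1 sample left out, enzymes that rose numbered 5 to 8 and that fell 5 to 7, and partners 12 to 15 and 7 to 11. The variance, scaling, dim-gene, array-weight and probe-set settings gave 7 to 11 enzymes that rose and 9 to 15 that fell. The test of every probe set on its own gave 11 and 15. There an enzyme counted when any of its probe sets passed, so these numbers are not like the others. Sign changes, 50 in all, were met in 21 enzymes that did not pass, and the cause was not tested. Their log2 changes from the mean of probe sets were Ezh1 -0.071, Kmt2d 0.0017, Setd4 -0.05, Setd5 -0.30, Kdm5b -0.15, Kdm7a -0.23, Hdac9 0.062 and Hdac10 0.017, with array weights Kdm7a -0.0082, and from hCG-6h sample 1 alone Dnmt3b 0.073, Kdm5b -0.10, Kdm5d -0.047, Kdm7a -0.40, Hdac1 -0.023, Sirt2 0.01 and Sirt4 0.26. With 1 sample left out they ranged as follows, each enzyme with its lowest and highest log2 change: Setd5 -0.032 to 0.10, Kdm7a -0.18 to 0.24, Hdac3 -0.068 to 0.24, Hdac9 -0.29 to 0.10, Ezh1 -0.12 to 0.25, Kmt2d -0.11 to 0.043, Kdm5c -0.20 to 0.23, Hdac7 -0.11 to 0.0017, Hdac10 -0.20 to 0.038, Hdac11 -0.13 to 0.047, Sirt4 -0.22 to 0.065, Setd1a -0.12 to 0.013, Setd3 -0.19 to 0.023, Kdm5d -0.085 to 0.15, Sirt2 -0.12 to 0.10, Setd4 -0.025 to 0.44, Hdac6 -0.12 to 0.66, Kdm5b -0.012 to 0.18, Setd7 -0.63 to 0.043 and Hdac1 -0.0033 to 0.19.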
